A study of Rattus norvegicus with 18 samples.

Results

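The knockdown of the aryl hydrocarbon receptor (AHR) with the siRNA named siAHR-2 was examined in 6 of the 18 RNA sequencing libraries of the series, the 3 siAHR-2 libraries and the 3 libraries of cells given the control siRNA, siCtrl. These 6 libraries were chosen by their labels alone and no expression value was used to choose them. All cells were Rat1 fibroblasts of the line HO15.19, an established rat line that lacks its own myc gene (myc-/-), kept in 10% serum. The cells of these 6 libraries had been given human MYC back from a stably integrated retroviral vector, so that MYC was driven by the vector and not by its own promoter (myc-/- + MYC). They were transfected with 40 nM siRNA and harvested after 48 h, and poly-A RNA was sequenced. A second siRNA against AHR, siAHR-5, was given to the same MYC-expressing cells under the same conditions in 3 further libraries and was used for a direct comparison. Untransfected myc-/- cells without MYC, also 3 libraries, served as a further reference for levels. Whether the lines were clones and whether the 3 libraries of a group came from separate cultures was not stated in the labels, so p-values measure the spread between these libraries, which may be technical.

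AHR is a transcription factor that is activated by small ligands. In the resting state it sits in the cytosol with HSP90 and the p23 protein encoded by Ptges3. On activation it moves to the nucleus, pairs with ARNT and binds DNA at the xenobiotic response element, whose core is GCGTG. Its classical targets are enzymes that oxidise or conjugate foreign compounds, and Ahrr, which encodes a repressor that competes for ARNT and closes a feedback loop. AHR is also known for roles in the growth, adhesion and matrix of fibroblasts.

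The promoters of the AHR target genes that fell most clearly and had an entry in RefSeq are shown, and they were chosen because they carry this core. Not every target does, since the promoter entry of Nfe2l2, a target called lower, has 0 matches, while that of Scin, a target that was not called, has 1. Each run holds 250 bases before and 50 after the annotated start of the gene, on the strand of the gene, from RefSeq on GRCr8, with GCGTG or its reverse complement CACGC in capitals. Ahrr lies on the plus strand at chr1:30821969-30822268 with 3 matches, Cyp1b1 on the plus strand at chr6:21094315-21094614 with 2, Ugt1a6 on the plus strand at chr9:96194768-96195067 with 1, and Nqo1 on the minus strand at chr19:52220218-52220517 with 1.
Ahrr: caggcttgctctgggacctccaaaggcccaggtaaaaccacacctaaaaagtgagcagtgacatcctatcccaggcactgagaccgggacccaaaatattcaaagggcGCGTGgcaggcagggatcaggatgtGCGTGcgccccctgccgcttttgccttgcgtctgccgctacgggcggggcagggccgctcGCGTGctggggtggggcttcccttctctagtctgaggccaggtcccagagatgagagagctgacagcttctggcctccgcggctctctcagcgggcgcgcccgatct
Cyp1b1: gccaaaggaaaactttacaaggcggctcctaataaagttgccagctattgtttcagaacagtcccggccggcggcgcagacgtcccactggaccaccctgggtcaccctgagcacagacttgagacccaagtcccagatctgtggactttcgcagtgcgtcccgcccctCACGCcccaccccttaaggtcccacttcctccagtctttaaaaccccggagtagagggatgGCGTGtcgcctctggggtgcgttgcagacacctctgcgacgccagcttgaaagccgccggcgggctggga
Ugt1a6: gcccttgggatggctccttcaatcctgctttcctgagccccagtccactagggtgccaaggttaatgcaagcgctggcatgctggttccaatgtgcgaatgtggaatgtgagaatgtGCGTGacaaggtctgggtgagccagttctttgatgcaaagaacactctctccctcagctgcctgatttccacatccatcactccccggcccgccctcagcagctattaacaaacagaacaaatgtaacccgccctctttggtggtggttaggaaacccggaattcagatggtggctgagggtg
Nqo1: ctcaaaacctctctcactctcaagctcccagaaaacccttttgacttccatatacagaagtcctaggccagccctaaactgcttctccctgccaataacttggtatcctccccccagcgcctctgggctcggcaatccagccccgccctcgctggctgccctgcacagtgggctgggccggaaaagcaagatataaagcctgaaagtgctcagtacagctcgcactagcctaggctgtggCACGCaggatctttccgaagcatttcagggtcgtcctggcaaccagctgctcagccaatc

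The core is short and common. Of 9441 genes of the table with a single promoter entry, 47.1% held GCGTG on either strand. Among the 41 genes that fell past both cutoffs (defined below), 31 had a single entry and 21 of these held it (67.7%). Among the 21 genes that rose, 13 had a single entry and 3 of these held it (23.1%). In the larger sets called at an FDR of 5%, genes with a single entry were counted likewise. The core was held by 881 of 1544 that fell (57.1%) and by 609 of 1338 that rose (45.5%). Of 12 measured AHR target genes, 8 had a single entry and 5 of these held it (62.5%). A match is only a match of letters within these windows, and binding was not measured here. Aldh3a1 and Cyp1a1 were not matched to an entry.

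Expression of 13188 genes was deposited as normalized values in log2 units. No read counts came with them, so the depth of the libraries is unknown. Across all 18 libraries, the first principal component held 74.7% of the variance and separated a set of 6 libraries from a set of 12 that holds the siCtrl, siAHR-2 and siAHR-5 libraries of MYC-expressing cells. Within the 6 libraries, the first component held 70.3% of the variance and separated siAHR-2 from siCtrl. The median standard deviation of a gene was 0.0449 over the siCtrl libraries and 0.0346 over the siAHR-2 libraries, and no 2 libraries were identical. Of 12 fibroblast markers all were measured, led by Vim, the intermediate filament of mesenchymal cells, at 19.45 in siCtrl and 19.09 in siAHR-2. The fibroblast collagen Col1a2 was low, at 3.64 in both groups. The highest of 22 measured markers of epithelium, endothelium, leukocytes and neural cells was Cd14, at 10.06 in siCtrl and 10.01 in siAHR-2, and 0 of the 22 passed an FDR of 5% by limma (1 at an unadjusted p under 0.05). The summed level of the fibroblast markers lay between 20.28 and 20.31 over the siCtrl libraries and between 20.05 and 20.09 over the siAHR-2 libraries, with 3 of the 12 lower and 1 higher at an FDR of 5%, and its part in the results was not tested. In bulk RNA, fewer cells of a type and less RNA per cell cannot be told apart.

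To check the knockdown, Ahr itself was examined first. Ahr mRNA stood at 13.34, 13.26 and 13.22 in the siCtrl libraries and at 11.97, 11.97 and 12.03 in the siAHR-2 libraries. Every siAHR-2 library lay below every siCtrl library. Ahr fell by 1.29 on the log2 scale (SE 0.0364, n = 3 per group, limma, adjusted p = 0.000237), a 2.44-fold lower level. Untransfected myc-/- cells without MYC stood at 12.01, 11.67 and 11.95, a range that overlaps the siAHR-2 values. With siAHR-5, Ahr stood at 11.95, 11.76 and 11.94. The direct difference between the siRNAs was 0.11 (SE 0.057, limma, adjusted p = 0.211), and its groups did not overlap.

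Of all 13188 genes, 62 (0.47%) passed both cutoffs with siAHR-2, a change of at least 1.5-fold and an adjusted p of at most 0.01. Of these, 41 fell (0.311% of all genes) and 21 rose (0.159%). At an FDR of 5% without a fold cutoff, 3860 genes (29.3%) were called, of which 2047 fell (15.5%) and 1813 rose (13.7%). Most of these shifts were small, with a median size of 0.195 and 3092 of 3860 below 0.3. Centring each library on its median moved the median of all genes by -0.031 and the share of rises from 33.9% to 22.1% of the genes past both cutoffs, and from 47% to 30.8% of those at an FDR of 5%. Without siAHR-2 replicate 2, 2572 genes were called at that FDR. The groups did not overlap for 62 of 62 genes past both cutoffs, against 43.3% of all genes. The same 6 libraries picked these 62 genes, so this follows largely from the cutoffs and is no separate support. Just inside the fold cutoff were Pdcd6 (-0.586), Wbscr22 (-0.5915) and Dgat2 (0.5951), and just outside it were Lbr (-0.5824), Tmem173 (-0.5848) and Arl2bp (0.5849).

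**Figure D1:**
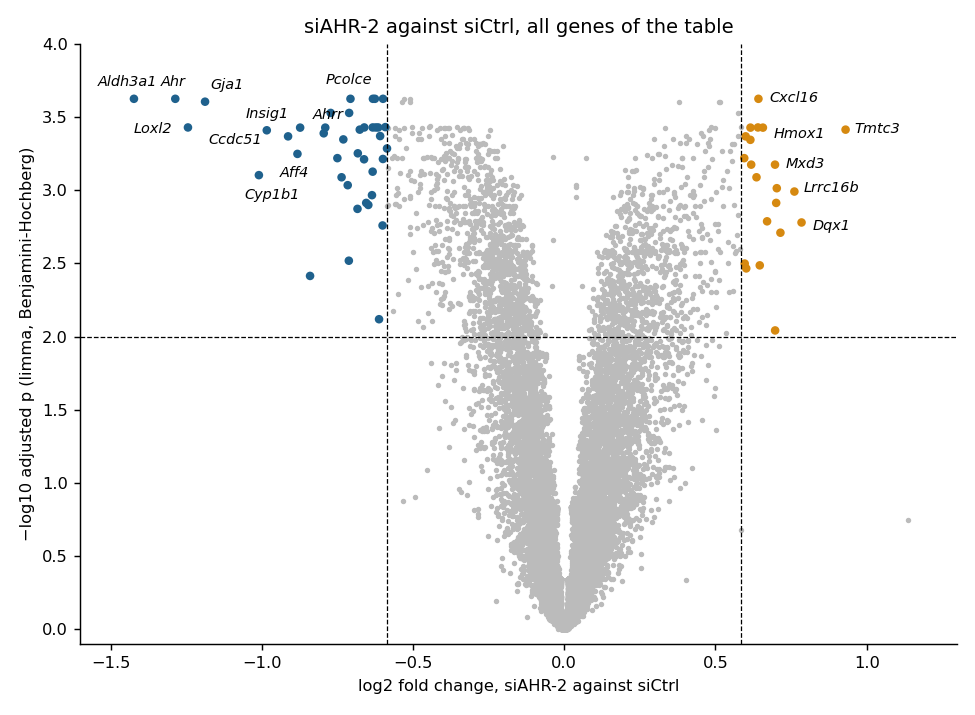
Log2 fold change of siAHR-2 against siCtrl (x axis) and −log10 of the adjusted p (y axis) for the 13188 genes of the table, with dashed lines at the cutoffs of 1.5-fold and 0.01. The 41 falls (blue) reach -1.42 at Aldh3a1 and the 21 rises (orange) reach 0.93 at Tmtc3. The grey point at the far right, a gene with a placeholder symbol, had a log2 fold change of 1.14 and an adjusted p of 0.178.

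More AHR target genes fell than rose, though the calls of Cyp1a1 and Nfe2l2 were lost in some settings given below. Of 15 listed targets, 12 were measured, 7 fell at an FDR of 5% (58.3%, against 15.5% of all genes), including Cyp1a1 at a low level given with its values, and 4 of these passed both cutoffs. None rose at that FDR by limma (0 of 12), and 1 was higher at an unadjusted p under 0.05, but 1 was called higher with 12 libraries in one fit, with the replicate number as a block, with a mean of at least 5 and without siAHR-2 replicate 2. Their median log2 fold change was -0.148, against 2.21e-06 over all genes. The largest fall of the table was that of Aldh3a1, an aldehyde dehydrogenase that oxidises medium-chain and aromatic aldehydes. Aldh3a1 stood at 11.51, 11.61 and 11.6 with siCtrl and at 10.11, 10.19 and 10.16 with siAHR-2. The groups were far apart relative to their spread, and the level was 2.68-fold lower (log2 fold change -1.42, SE 0.0393, limma, adjusted p = 0.000237).

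Cyp1b1, a cytochrome P450 that hydroxylates oestrogens and polycyclic hydrocarbons, stood at 13.37, 13.34 and 13.15 with siCtrl and at 12.32, 12.32 and 12.2 with siAHR-2. It was 2.01-fold lower (log2 fold change -1.01, SE 0.0688, limma, adjusted p = 0.000788), and the third siCtrl library was the lowest of its group. Ahrr, the feedback repressor, stood at 13.6, 13.57 and 13.51 with siCtrl and at 12.79, 12.7 and 12.8 with siAHR-2, a difference of -0.80 (SE 0.0377, limma, adjusted p = 0.000408). For Ahrr the libraries of each group lay close together and the groups were clearly apart. Ugt1a6, which joins glucuronic acid to phenols, stood at 9.13, 9.1 and 8.99 with siCtrl and at 8.47, 8.42 and 8.39 with siAHR-2 (log2 fold change -0.65, SE 0.0531, limma, adjusted p = 0.00126). The Ugt1a genes share exons, so that reads could be split between them and the value of Ugt1a6 is uncertain.

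Nqo1, a quinone reductase that both AHR and NRF2 are known to drive, fell by 0.47 (SE 0.0208, limma, adjusted p = 0.000373), which is short of the fold cutoff. It stood at 14.01, 14.01 and 14.07 with siCtrl and at 13.56, 13.55 and 13.57 with siAHR-2. Nfe2l2, the gene of NRF2 and itself an AHR target, was lower by 0.10 (adjusted p = 0.00307 by limma), a call that was lost under quantile normalization (adjusted p = 0.145). Cyp1a1, the best known AHR target, was among the lowest genes of the list and stood at 3.82, 3.9 and 3.7 with siCtrl and at 3.58, 3.65 and 3.61 with siAHR-2. The siAHR-2 values lie close to the 3.57 of untransfected myc-/- cells (mean, SD 0.000682, n = 3), so the row may have its floor there in this set of 12 libraries and the change may be bounded by it, which was not tested. Its log2 fold change was -0.19 (SE 0.0546) and its adjusted p by limma was 0.0484, and the call was lost without any one of 5 of the 6 libraries (adjusted p between 0.0866 and 0.142). The other listed targets did not pass an FDR of 5%. They were Gsta3 (log2 fold change -0.01), Xdh (-0.07), Scin (0.24), Serpinb2 (-0.07) and Ereg (0.00), of which Gsta3, Serpinb2 and Ereg stood below 6.

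**Figure D2:**
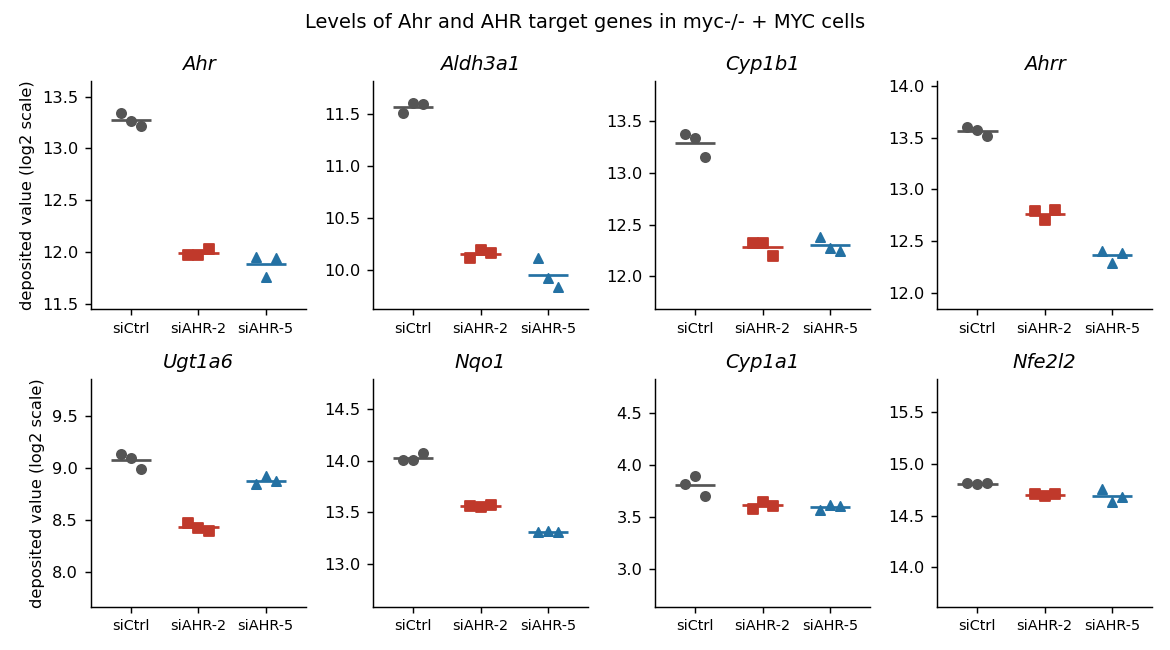
Deposited log2 values of Ahr and 7 AHR target genes in each library of MYC-expressing cells given siCtrl (circles), siAHR-2 (squares) or siAHR-5 (triangles), with lines at the group means; each panel spans the same number of log2 units. Ahr, Aldh3a1, Cyp1b1 and Ahrr are lower with both siRNAs than with siCtrl, and Ugt1a6 is lowest with siAHR-2.

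Of the partners of AHR, 8 were measured including Ahr and Ahrr. At an FDR of 5%, 4 fell (50%, against 15.5% of all genes) and 1 rose (12.5%, against 13.7%). The 4 falls include Ahr itself, the target of the siRNA, and Ahrr, which is also counted among the AHR targets above. The share of falls is therefore no result about the other partners. Arnt, the DNA-binding partner, stood at 13.81, 13.72 and 13.71 with siCtrl and at 13.66, 13.69 and 13.65 with siAHR-2 (log2 fold change -0.08, adjusted p = 0.114 by limma). The groups of Arnt did not overlap, but the difference did not pass the test. The chaperone gene Hsp90ab1 fell by 0.17 (adjusted p = 0.0137 by limma) and Hsp90aa1 by 0.22 (adjusted p = 0.0413 by limma), and Ptges3 rose by 0.11 (adjusted p = 0.0201 by limma). Without siAHR-2 replicate 1 or 2, 2 of the 8 were called lower and 0 higher by limma. The call of Hsp90aa1 was lost without siCtrl replicate 2 or any one siAHR-2 library (adjusted p between 0.0679 and 0.117) and under quantile normalization (adjusted p = 0.103). Arnt2, a relative of ARNT, did not pass (-0.18, adjusted p = 0.074 by limma).

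Of 21 measured antioxidant genes of the NRF2 and glutathione list, 6 fell (28.6%, against 15.5% of all genes) and 2 rose (9.52%, against 13.7%) at an FDR of 5%. Under median centring 13 fell and under quantile normalization 6 rose, and 4 fell without siCtrl replicate 2 or siAHR-2 replicate 1 or 2. Hmox1, which breaks down haem and is induced by oxidative stress, stood at 11.97, 11.93 and 11.94 with siCtrl and at 12.57, 12.59 and 12.65 with siAHR-2. All siAHR-2 libraries were higher, by 0.66 on average (SE 0.0279, limma, adjusted p = 0.000373). Pgd, an NADPH-producing enzyme of the pentose phosphate pathway, fell by 0.55 (adjusted p = 0.000385 by limma) and Gpx1, a glutathione peroxidase, by 0.37 (adjusted p = 0.00128 by limma). Txnrd1, a thioredoxin reductase, fell by 0.23 with siAHR-2 (adjusted p = 0.00183 by limma).

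Besides Ahr and its targets, the largest falls among the named genes were those of Loxl2, Gja1 and Insig1. Loxl2, an enzyme that crosslinks collagen and elastin, stood at 14.87, 14.89 and 14.71 with siCtrl and at 13.56, 13.61 and 13.56 with siAHR-2, a 2.37-fold lower level (log2 fold change -1.24, SE 0.0503, limma, adjusted p = 0.000372). Gja1, the gap junction protein connexin 43, stood at 14.84, 14.75 and 14.78 with siCtrl and at 13.55, 13.66 and 13.59 with siAHR-2, a 2.28-fold lower level (log2 fold change -1.19, SE 0.038, limma, adjusted p = 0.000248). Insig1, which holds the SREBP pathway of sterol synthesis in the endoplasmic reticulum, stood at 14.33, 14.22 and 14.16 with siCtrl and at 13.22, 13.28 and 13.26 with siAHR-2 (log2 fold change -0.98, SE 0.0456, limma, adjusted p = 0.000389). For all 3 genes the highest siAHR-2 library lay well below the lowest siCtrl library.

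The other named falls ranged from -0.91 to -0.73. They were Ccdc51, a mitochondrial inner membrane protein (-0.91), Aff4, the scaffold of the super elongation complex of transcription (-0.88), and Map1b, a microtubule-associated protein (-0.79). Smagp, a small transmembrane adhesion protein (-0.77), Cmtr2, an enzyme that methylates the mRNA cap (-0.75), Tmed5, a cargo receptor of the early secretory pathway (-0.74), and Uvrag, a regulator of autophagy and endosomes (-0.73), completed them. Their adjusted p-values by limma ran from 0.000296 to 0.000815. Further genes past both cutoffs, singled out after their values were seen, handle procollagen. These were Pcolce, an enhancer of procollagen processing (16.63, 16.64 and 16.67 with siCtrl, 15.95, 15.94 and 15.92 with siAHR-2, log2 fold change -0.71), and Serpinh1, the collagen chaperone HSP47 (-0.66, adjusted p = 0.000372 by limma).

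The largest rise was that of Tmtc3, a protein O-mannosyltransferase of the endoplasmic reticulum. Tmtc3 stood at 12.55, 12.43 and 12.4 with siCtrl and at 13.41, 13.39 and 13.37 with siAHR-2, a 1.91-fold higher level (log2 fold change 0.93, SE 0.0427, limma, adjusted p = 0.000385). Mxd3, which pairs with MAX and opposes MYC at E-boxes, stood at 10.44, 10.53 and 10.53 with siCtrl and at 11.17, 11.26 and 11.15 with siAHR-2 (log2 fold change 0.70, SE 0.0442, limma, adjusted p = 0.000668). Cxcl16, a membrane-bound chemokine, stood at 12.21, 12.16 and 12.19 with siCtrl and at 12.83, 12.84 and 12.83 with siAHR-2 (log2 fold change 0.64, SE 0.0181, limma, adjusted p = 0.000237). In each of these genes the siAHR-2 libraries were all above the siCtrl libraries and close to each other.

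The remaining named rises lay between 0.65 and 0.78. They were Dqx1, a relative of RNA helicases (0.78), Lrrc16b, a regulator of actin capping (0.76), Scn1a, a voltage-gated sodium channel (0.71), Nr4a3, an orphan nuclear receptor of the early response (0.70), and Mertk, a receptor kinase for the uptake of dying cells (0.70). Atcay, known from ataxia (0.67), Hmox1 and the minor collagen chain Col11a2 (0.65) followed. RT1-CE14, a class I histocompatibility gene, rose by 0.70 (adjusted p = 0.00908 by limma), but reads of such genes are hard to assign among close copies, its first 2 siCtrl libraries (11.03 and 11.08) stood above the third (10.69), and the call past both cutoffs was lost without any one library, 5 times by p (adjusted p between 0.0168 and 0.0408) and once by size, at 0.58 without siCtrl replicate 3. Dqx1, Lrrc16b, Scn1a, Atcay and Col11a2 stood below 10 in all 6 libraries, and how the transformation of the table acts on such low values was not tested.

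**Figure D3:**
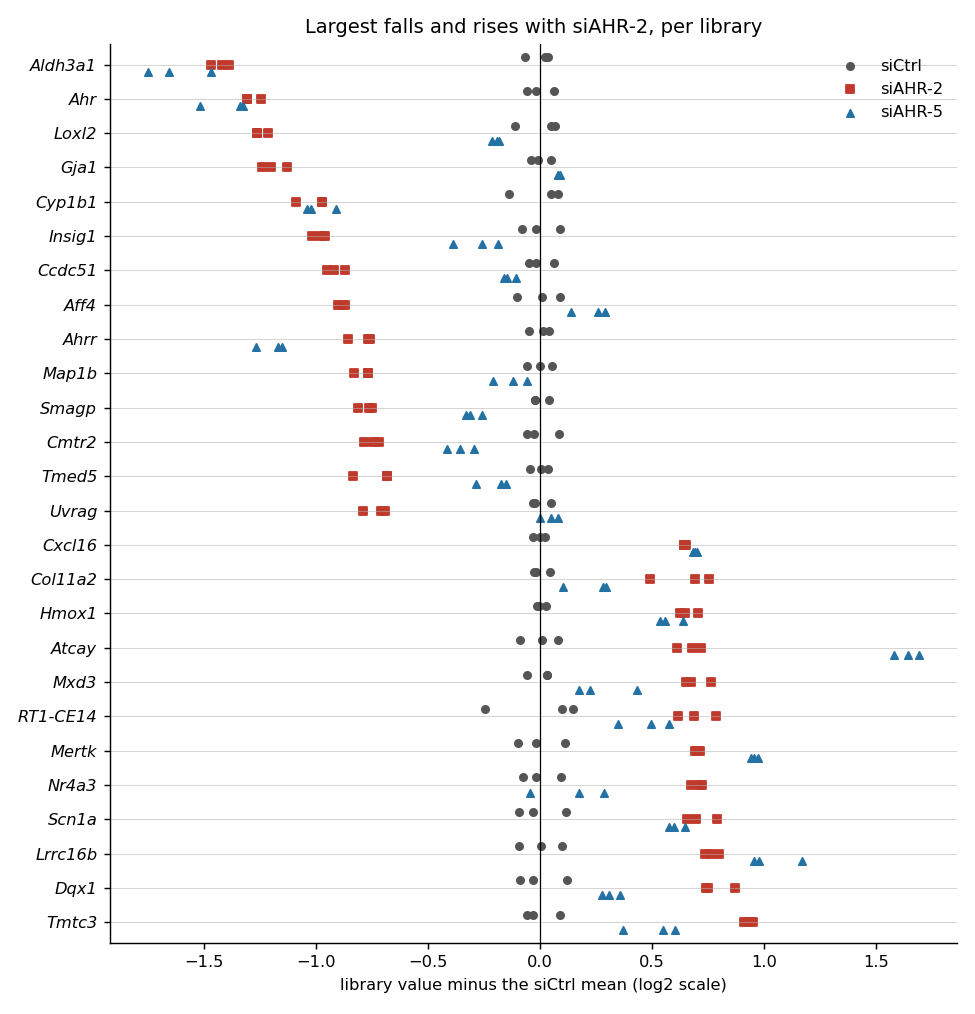
Value of each library minus the siCtrl mean (x axis, log2 units) for 14 of the 15 largest falls and for the 12 largest rises with siAHR-2, with siCtrl as circles, siAHR-2 as squares and siAHR-5 as triangles. The siAHR-2 squares are clear of the siCtrl circles in every row, as the rule that chose these genes required. The siAHR-5 triangles lie near the circles for Gja1, Aff4 and Uvrag and near the squares for Ahr, Cyp1b1, Hmox1 and Cxcl16.

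To compare the siRNAs, siAHR-2 was tested directly against siAHR-5. Of all genes, 287 (2.18%) passed both cutoffs, 175 lower (1.33%) and 112 higher (0.849%) with siAHR-2, and 39.1% were called at an FDR of 5%. Against siCtrl, 2.32% of all genes passed both cutoffs with siAHR-5 and 39.2% an FDR of 5%. The siAHR-2 libraries that picked the genes above also enter this comparison, so the following values are given gene by gene. Gja1 stood at 14.88, 14.87 and 14.87 with siAHR-5, above all siAHR-2 libraries, and the direct difference was -1.27 (SE 0.0301, limma, adjusted p = 5.21e-05). Loxl2 stood at 14.63, 14.64 and 14.61 with siAHR-5, a direct difference of -1.05 (adjusted p = 3.39e-05 by limma). Aff4 stood at 15.49, 15.37 and 15.52 with siAHR-5, a direct difference of -1.11 (adjusted p = 6.52e-05 by limma). These 3 genes were thus well below their siAHR-5 level with siAHR-2.

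Insig1 (-0.70), Ccdc51 (-0.78), Map1b (-0.66), Uvrag (-0.77), Pcolce (-0.71) and Serpinh1 (-0.59) were also lower with siAHR-2 than with siAHR-5 past both cutoffs, Serpinh1 barely so. Their siAHR-5 means stood between 10.35 for Ccdc51 and 16.82 for Serpinh1. Among the AHR targets called lower with siAHR-2, the direct difference did not pass an FDR of 5% for Cyp1b1 (-0.02, SE 0.0494, adjusted p = 0.793 by limma), Aldh3a1 (0.20, SE 0.0772, adjusted p = 0.1), Cyp1a1 (0.01, adjusted p = 0.766) and Nfe2l2 (0.01, adjusted p = 0.835). Ahrr was higher with siAHR-2 than with siAHR-5 by 0.40 (adjusted p = 0.00157 by limma) and Nqo1 by 0.25 (adjusted p = 0.000247 by limma). Ugt1a6 went the other way and was lower with siAHR-2 by 0.45 (adjusted p = 0.00102 by limma). Among the rises, Hmox1 (0.08) and Cxcl16 (-0.05) did not differ between the siRNAs past an FDR of 5% (adjusted p = 0.135 and 0.0692 by limma), whereas Mxd3 was higher with siAHR-2 by 0.42 (adjusted p = 0.00864 by limma) and Atcay lower by 0.97 (adjusted p = 0.000166 by limma).

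The largest direct differences upward were in Rad23b, a DNA repair and proteasome shuttle factor, Fech, the last enzyme of haem synthesis, and Habp4, a hyaluronan- and RNA-binding protein. Rad23b stood at 15.75, 15.77 and 15.81 with siAHR-2 and at 14.06, 14 and 14.04 with siAHR-5, a difference of 1.75 (adjusted p = 2.37e-05 by limma), and siCtrl stood at 16.23, 16.22 and 16.14. The siAHR-2 libraries of Rad23b were thus nearer to siCtrl. Fech differed by 1.27 (adjusted p = 5.95e-05 by limma), and its siAHR-2 mean of 12.44 lay above and its siAHR-5 mean of 11.17 below the siCtrl mean of 11.88. Habp4 differed by 1.24 (adjusted p = 5.46e-05 by limma), with siAHR-2 and siCtrl overlapping. The largest downward, beside Gja1, were in the receptor phosphatase gene Ptprv (-1.38) and the cadherin gene Cdh3 (-1.32), for which siAHR-5 stood above the other groups.

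Genes that build ribosomes and charge tRNAs were examined as lists. Of 107 listed nucleolar ribosome biogenesis factors, 96 were measured and 68 fell (70.8%, against 15.5% of all genes) while 0 rose at an FDR of 5% by limma (0 at an unadjusted p under 0.05). The median was -0.158, and 89 of the 96 values were negative. Without siAHR-2 replicate 1, 44 were called lower, and 1 was called higher under quantile normalization and without siCtrl replicate 3. Nolc1, a nucleolar phosphoprotein that gathers snoRNPs, stood at 16.56, 16.56 and 16.53 with siCtrl and at 16.15, 16.19 and 16.2 with siAHR-2 (log2 fold change -0.37, limma, adjusted p = 0.00042). Ddx21, a nucleolar RNA helicase, fell by 0.24 (adjusted p = 0.000389 by limma), Pwp2, a subunit of the small-subunit processome, by 0.29 (adjusted p = 0.000497) and Ddx54, another helicase, by 0.35 (adjusted p = 0.000512). Each of these was lower in all siAHR-2 libraries, yet none of the 96 reached the fold cutoff. For comparison, 59 of 80 members with a single promoter entry held GCGTG (73.8%, against 47.1% of all such genes). The E-box CACGTG was held by 25 of them (31.2%, against 9.05% of all such genes). Among lists given below, GCGTG was held by 64.1% of such translation factors and by 53.2% of such cytosolic ribosomal proteins. The E-box was held by 23.1% and 8.06% of these.

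Of 22 aminoacyl-tRNA synthetases and partners, 19 fell (86.4%, against 15.5% of all genes) and 0 rose, against 13.7% of all genes, at an FDR of 5% by limma (0 at an unadjusted p under 0.05), with a median of -0.194 and all 22 values negative. Iars, the isoleucine enzyme, stood at 15.41, 15.45 and 15.41 with siCtrl and at 14.95, 14.95 and 15.05 with siAHR-2 (log2 fold change -0.44, adjusted p = 0.00102 by limma). The scaffold member Eef1e1 (-0.37), the alanine enzyme Aars (-0.24) and the lysine enzyme Kars (-0.24) were lower as well. Of 47 translation factors, 32 fell (68.1%) and 1 rose (2.13%), against the same shares of all genes, with a median of -0.129. This count depended on the processing: 17 fell and 6 rose under quantile normalization, and 19, 20 and 19 fell without siAHR-2 replicate 1, 2 and 3. Eif4g2, a translation initiation factor that works without the cap-binding protein, passed both cutoffs at 17.85, 17.79 and 17.78 with siCtrl and 17.18, 17.18 and 17.22 with siAHR-2 (log2 fold change -0.62, SE 0.0236, limma, adjusted p = 0.000372). Eif5a (-0.53) and Eif2a (-0.56) fell short of the fold cutoff.

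Of 34 subunits and factors of the RNA polymerases that transcribe rRNA and tRNA, 11 were lower (32.4%, against 15.5% of all genes) and 2 higher (5.88%, against 13.7%), with a median of -0.0596. Polr3g, one of 2 alternative subunits of RNA polymerase III, passed both cutoffs. It stood at 13.07, 12.96 and 13 with siCtrl and at 12.32, 12.35 and 12.33 with siAHR-2, a fall of 0.68 (SE 0.0308, limma, adjusted p = 0.000385), and at 13.15, 12.93 and 13.09 with siAHR-5. Polr3k (-0.38) and Polr1b (-0.30) were lower with siAHR-2 too.

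All 79 listed proteins of the cytosolic ribosome were measured. With siAHR-2, 3 fell (3.8%, against 15.5% of all genes) and 9 rose (11.4%, against 13.7%) at an FDR of 5%, and the median was 0.0203. The number of rises was unstable, at 41 under quantile normalization and at 3 without siAHR-2 replicate 1 or 2 and 5 without siCtrl replicate 2, and 5 fell without siCtrl replicate 1. Rpl3 stood at 18.35, 18.41 and 18.42 with siCtrl and at 18.68 in each siAHR-2 library (log2 fold change 0.29, limma, adjusted p = 0.00128), whereas Rpl11 fell by 0.23 (adjusted p = 0.00135 by limma) and Rpl15 by 0.19 (adjusted p = 0.00494 by limma). With siAHR-5 against the same siCtrl libraries, 66 of the 79 were lower (83.5%, against 18.1% of all genes) and the median was -0.314. In the direct comparison 72 of 79 were higher with siAHR-2 than with siAHR-5 (91.1%, against 17% of all genes at an FDR of 5%) and 0 were lower by limma (0 at an unadjusted p under 0.05), with a median difference of 0.344. Under the other scalings, with the replicate number as a block and without each library in turn, 65 to 78 were higher and at most 1 lower. Rpl3 stood at 18.22, 18.21 and 18.17 with siAHR-5. Ribosomal protein genes have many near-identical pseudogenes, and reads could be split between them.

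**Figure D4:**
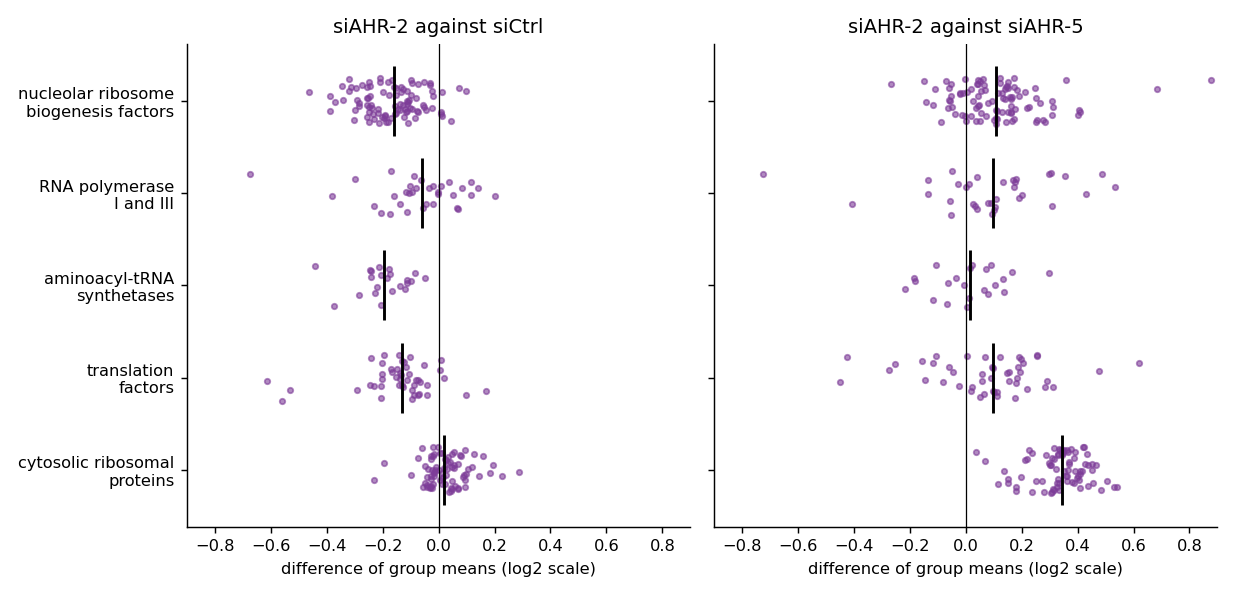
Difference of group means (x axis, log2 units) for each measured member of the protein synthesis lists, siAHR-2 against siCtrl on the left and siAHR-2 against siAHR-5 on the right, with black bars at the list medians. The nucleolar factors centre on -0.158 on the left and 0.11 on the right, and the cytosolic ribosomal proteins on 0.0203 and 0.344.

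In the same direct comparison, 48 of 96 nucleolar factors were higher with siAHR-2 than with siAHR-5 and 5 were lower, beside 17% and 22.1% of all genes, with a median difference of 0.11, and 80 of 96 were lower with siAHR-5 than with siCtrl (median -0.281), as were 18.1% of all genes. The 5 became 2 without siAHR-2 replicate 2 or siAHR-5 replicate 1 and under median centring, 3 without siAHR-2 replicate 1 or 3 or siAHR-5 replicate 3, and 8 without siAHR-5 replicate 2. Of the 22 synthetases and partners, 6 were higher and 5 lower with siAHR-2 than with siAHR-5, with a median difference of 0.0138. The number lower was 3 without siAHR-2 replicate 1 or 2 or siAHR-5 replicate 1 or 3, with 4 higher each time, and 7 were lower and 7 higher without siAHR-5 replicate 2. With siAHR-5 against siCtrl, 20 of the 22 were lower and 0 higher by limma, beside 18.1% and 21.1% of all genes. Of the 47 translation factors, 34 were lower and 1 higher with siAHR-5 against siCtrl. Directly, 23 of the 47 were higher and 6 lower with siAHR-2 than with siAHR-5.

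Among the metabolic lists, of 23 measured genes of glycolysis and glucose uptake, 16 fell (69.6%, against 15.5% of all genes) and 1 rose (4.35%, against 13.7%) at an FDR of 5%, with a median of -0.212. Ldha, lactate dehydrogenase A, stood at 18.99, 19.04 and 19.04 with siCtrl and at 18.72, 18.73 and 18.74 with siAHR-2 (log2 fold change -0.29, limma, adjusted p = 0.000774). Aldolase A (Aldoa) fell by 0.33 and the pyruvate dehydrogenase kinase Pdk1 by 0.37, while the lactate transporter Slc16a1 rose by 0.36 (adjusted p = 0.000449 by limma). Of 17 hypoxia targets, a list that shares genes such as Pdk1 with glycolysis, 12 fell (70.6%) and 1 rose (5.88%), against the same shares of all genes, and 8 fell without siCtrl replicate 3 or siAHR-2 replicate 1. Ndrg1, a stress-induced gene of that list, fell by 0.45 (adjusted p = 0.000428 by limma). Against siCtrl, 7 of the 17 were higher and 4 lower with siAHR-5 (21.1% and 18.1% of all genes). In the direct comparison 12 of the 17 were lower and 1 higher with siAHR-2 than with siAHR-5 (22.1% and 17% of all genes). Of the 23 glycolysis genes, 11 were lower and 4 higher with siAHR-5 against siCtrl (18.1% and 21.1% of all genes). Directly, 13 of the 23 were lower and 3 higher with siAHR-2 than with siAHR-5.

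Of 24 genes of cholesterol synthesis and uptake, 14 fell (58.3%, against 15.5% of all genes) and 1 rose (4.17%, against 13.7%), with a median of -0.21. Fdps, which makes farnesyl diphosphate, stood at 15.81, 15.84 and 15.83 with siCtrl and at 15.44, 15.4 and 15.4 with siAHR-2 (log2 fold change -0.41, limma, adjusted p = 0.000373). Hmgcs1, at the entry of the pathway, fell by 0.35 (adjusted p = 0.00249 by limma). Of 18 fatty acid synthesis genes, 8 fell (44.4%) and 1 rose (5.56%). The fallers included Scd1, the stearoyl-CoA desaturase (-0.41), Acly, ATP citrate lyase (-0.33), and Fasn, fatty acid synthase (-0.24). Of 24 genes of purine and pyrimidine synthesis, 15 fell (62.5%) and 4 rose (16.7%). Among the fallers were Cad, the first enzyme of pyrimidine synthesis (-0.17), and Umps, which completes it (-0.30), and the nucleotide kinase Cmpk1 rose by 0.45 (adjusted p = 0.000914 by limma). With siAHR-5 against siCtrl, 15 of the 24 cholesterol genes were lower and 1 higher (18.1% and 21.1% of all genes). For fatty acid synthesis 8 were lower and 4 higher, and for purines and pyrimidines 17 and 1. Directly, 11, 5 and 17 were higher with siAHR-2 than with siAHR-5, and 3, 6 and 4 lower (17% and 22.1% of all genes).

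Of 43 measured mitosis genes, 17 rose (39.5%, against 13.7% of all genes) and 4 fell (9.3%, against 15.5%), with a median of 0.0814, and 11 rose without siAHR-2 replicate 1 or 2, against 27 under quantile normalization. Top2a, a topoisomerase of dividing cells, stood at 16.79, 16.72 and 16.73 with siCtrl and at 17.07, 17.07 and 17.1 with siAHR-2 (log2 fold change 0.34, limma, adjusted p = 0.000716). The checkpoint protein Bub3 rose by 0.33 and the spindle motor Kif11 by 0.19. Of 48 DNA replication genes, 15 rose (31.2%, against 13.7% of all genes) and 4 fell (8.33%, against 15.5%), the falls numbering 1 without siAHR-2 replicate 1 or 2 and 2 without siAHR-2 replicate 3. Their median was 0.0176 and 20 of the 48 values were negative, and with siAHR-5 against the same siCtrl libraries 7 were higher and 23 lower (21.1% and 18.1% of all genes). The primase subunit Prim2 rose by 0.48, Mcm10 by 0.38 and E2f1, a regulator of S phase entry, by 0.29 (adjusted p = 0.00134 by limma), whereas the helicase subunit Mcm3 fell by 0.37 (adjusted p = 0.00108 by limma). Cell cycle phases were not analysed here.

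Of 20 measured p53 targets, 8 fell (40%, against 15.5% of all genes) and 3 rose (15%, against 13.7%), and 5 fell without siAHR-2 replicate 1. In the direct comparison 15 of the 20 were lower with siAHR-2 than with siAHR-5 (75%, against 22.1% of all genes), and against siCtrl 10 were higher and 1 lower with siAHR-5 (21.1% and 18.1% of all genes). In that direct comparison 0 were higher by limma, against 17% of all genes (0 at an unadjusted p under 0.05). For the remaining lists only counts are given, beside the 15.5% of all genes that fell and the 13.7% that rose. At an FDR of 5%, 7 fell and 4 rose of 31 genes of xenobiotic and aldehyde metabolism (22.6% and 12.9%), 8 and 3 of 24 amino acid transporters and glutamine enzymes, 7 and 3 of 21 contractile genes, 9 and 7 of 27 YAP and TGF-beta targets, and 5 and 7 of 27 immediate early factors. The counts were 4 and 2 of 24 cytokines and chemokines (16.7% and 8.33%), 10 and 7 of 31 lysosome genes, and 3 and 6 of 15 clock genes, whose rises numbered 1 without siAHR-2 replicate 1 or 2.

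Of 16 collagens, 6 fell (37.5%, against 15.5% of all genes) and 2 rose (12.5%, against 13.7%). Col5a1, a chain of type V collagen, stood at 16.11, 16.11 and 16.13 with siCtrl and at 15.77, 15.8 and 15.78 with siAHR-2 (log2 fold change -0.34, limma, adjusted p = 0.000373), Col5a2 fell by 0.23 and Col1a1 by 0.13, and Col11a1 rose by 0.34. In the direct comparison 9 of the 16 were lower with siAHR-2 than with siAHR-5 (56.2%, against 22.1% of all genes) and 0 were higher by limma (0 at an unadjusted p under 0.05). Against siCtrl, 7 of the 16 were higher and 0 lower with siAHR-5 at an FDR of 5% by limma (21.1% and 18.1% of all genes). Of 37 other matrix genes, 8 fell (21.6%) and 2 rose (5.41%) against 15.5% and 13.7% of all genes. In the direct comparison 18 were lower and 3 higher with siAHR-2 than with siAHR-5 (22.1% and 17% of all genes). Against siCtrl, 15 of the 37 were higher and 8 lower with siAHR-5 (21.1% and 18.1% of all genes). Sparc, a collagen-binding matrix glycoprotein, stood at 15.64, 15.67 and 15.67 with siCtrl, at 15.42, 15.42 and 15.46 with siAHR-2 and at 16.07, 16.13 and 16.05 with siAHR-5, and its direct difference was -0.65 (adjusted p = 8.22e-05 by limma). The siAHR-2 and siAHR-5 libraries of Sparc thus lay on opposite sides of siCtrl.

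Lists that respond to double-stranded RNA or to a loaded silencing machinery were examined because siRNAs had been transfected into all of these cells. Of 31 interferon response genes, 2 fell and 4 rose at an FDR of 5%, shares of 6.45% and 12.9% that are below the 15.5% and 13.7% of all genes. Against siCtrl, 17 of the 31 were higher and 2 lower with siAHR-5 (21.1% and 18.1% of all genes), and 14 were lower (45.2%, against 22.1% of all genes) and 4 higher with siAHR-2 than with siAHR-5 in the direct comparison. Oasl, a homologue of the 2-5A synthetases, stood at 8.75, 8.49 and 8.54 with siCtrl, at 7.93, 7.82 and 7.89 with siAHR-2 and at 9.03, 9.03 and 9.12 with siAHR-5, a fall of 0.71 with siAHR-2 (SE 0.0817, limma, adjusted p = 0.00303). The chemokine Cxcl10 fell by 0.56 (adjusted p = 0.00108 by limma). Among the 4 rises, Irf9 was higher by 0.25 (adjusted p = 0.00524 by limma) and Stat2 by 0.14 (adjusted p = 0.0248 by limma). The rises fell to 1 without siAHR-2 replicate 2 or 3 and to 2 without siAHR-2 replicate 1, siCtrl replicate 2 or siCtrl replicate 3. Of 12 RNA interference genes, 3 fell and 3 rose (25% each, against 15.5% and 13.7% of all genes), with the microRNA exporter Xpo5 lower by 0.34 and the silencing scaffold Tnrc6b higher by 0.32. Of 31 ATF4 and unfolded protein response genes, 14 fell (45.2%) and 4 rose (12.9%) against the same shares of all genes, the rises numbering 2 without siAHR-2 replicate 1 or 2. Chac1, which degrades glutathione under stress, fell by 0.60 (adjusted p = 0.000611 by limma), and Shmt2, the mitochondrial serine hydroxymethyltransferase, rose by 0.45 (adjusted p = 0.000408 by limma).

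**Figure D5:**
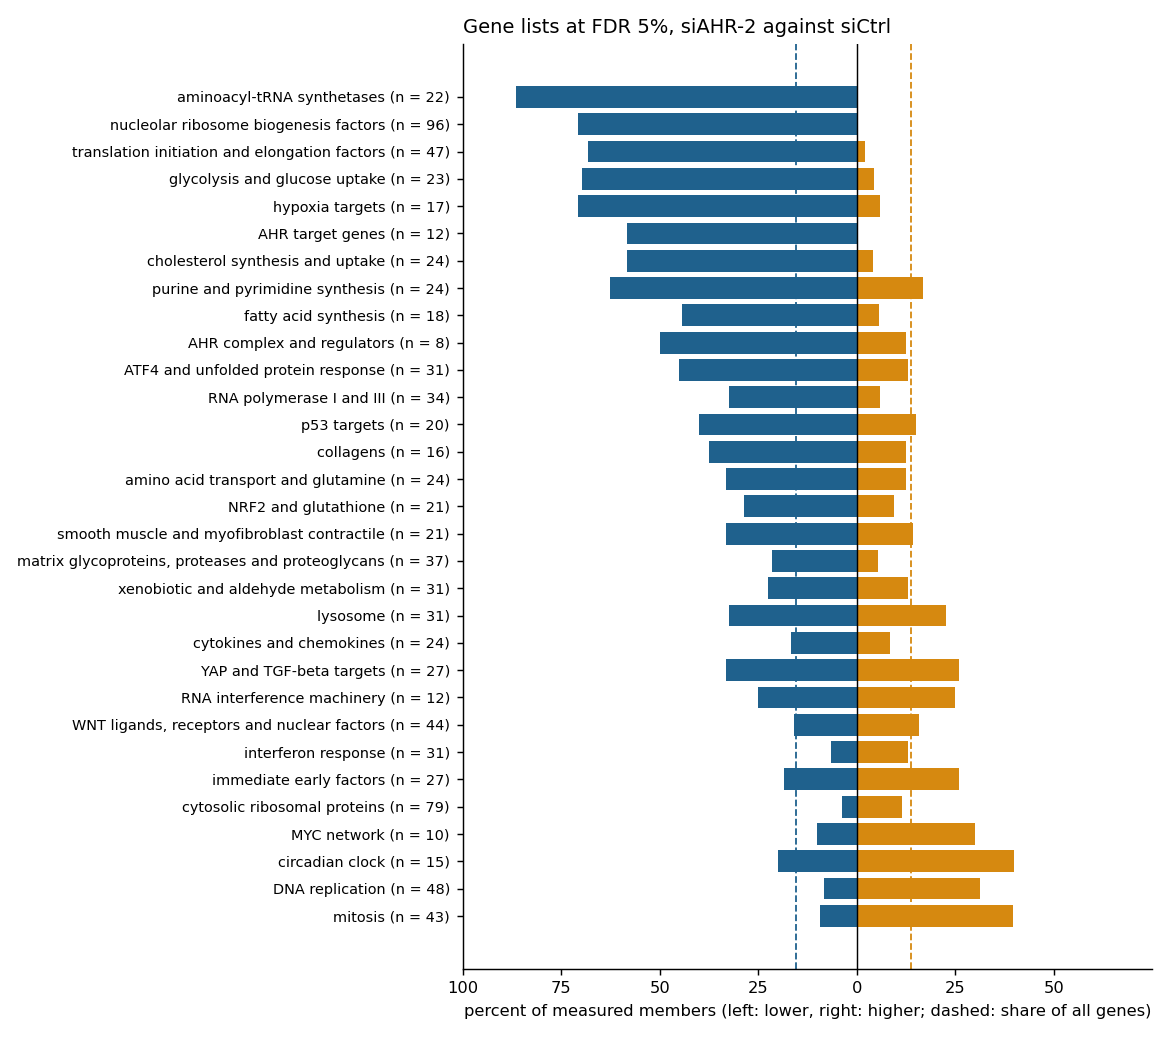
Percent of the measured members of each list that were lower (blue, to the left) or higher (orange, to the right) at an FDR of 5% with siAHR-2 against siCtrl, with dashed lines at the shares of all genes, 15.5% and 13.7%. The aminoacyl-tRNA synthetases stand at 86.4% lower, the mitosis genes at 39.5% higher and the clock genes at 40% higher.

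The study follows MYC and the WNT pathway, so these genes were examined in the knockdown. Of 44 measured WNT ligands, receptors and nuclear factors, 7 fell and 7 rose at an FDR of 5% (15.9% each), close to the 15.5% and 13.7% of all genes. The rises were between 2 and 4 without siCtrl replicate 2 or 3 or any one siAHR-2 library. Lef1, a nuclear partner of β-catenin, stood at 11.33, 11.26 and 11.26 with siCtrl and at 11.4, 11.46 and 11.55 with siAHR-2, a log2 fold change of 0.19 (SE 0.0473, limma, adjusted p = 0.0366). The call of Lef1 was lost without siAHR-2 replicate 2 or 3 or any one siCtrl library (adjusted p between 0.0554 and 0.103). Lrp6, a WNT coreceptor, stood at 14.02, 13.95 and 13.84 with siCtrl and at 13.69, 13.65 and 13.72 with siAHR-2 (log2 fold change -0.25, SE 0.0493, limma, adjusted p = 0.0161). Its call was lost without siCtrl replicate 2 or siAHR-2 replicate 1 or 2 (adjusted p between 0.053 and 0.0604) and with all 12 libraries in the fit (adjusted p = 0.138). Ctnnb1, β-catenin itself, fell by 0.24 (adjusted p = 0.00388 by limma), and the receptor genes Fzd4 and Lrp5 by 0.21 and 0.19.

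In the MYC network, 3 of 10 measured genes rose (30%, against 13.7% of all genes) and 1 fell (10%, against 15.5%), and without siCtrl replicate 1 or any one siAHR-2 library 1 rose. Beside Mxd3, Mlx, a partner of the glucose-sensing MONDO factors, fell by 0.43 (adjusted p = 0.00266 by limma). Max, the obligate partner of MYC, stood at 12.93, 12.89 and 12.79 with siCtrl and at 12.91, 12.91 and 12.88 with siAHR-2, so that the groups overlapped (log2 fold change 0.03, SE 0.0393, limma, adjusted p = 0.613). The table has a row for rat Myc, the gene these cells lack by their label, and it was among the 3 rises. Rat Myc stood at 8.16, 8.19 and 8.27 with siCtrl, at 8.39, 8.4 and 8.53 with siAHR-2 and at 8.37, 8.34 and 8.51 with siAHR-5. The log2 fold change with siAHR-2 was 0.23 (SE 0.0568, limma, adjusted p = 0.0317), and the call was lost under quantile normalization (adjusted p = 0.0817) and without any one library but siCtrl replicate 3 (adjusted p between 0.0618 and 0.092). In untransfected myc-/- cells without MYC the row was higher, at 10.9, 10.82 and 10.94. What this row counts in cells labelled myc-/-, and whether reads of the human MYC reach it, was not tested. The other rise was that of Mxd1, a further MAX partner that opposes MYC (0.14, adjusted p = 0.0453 by limma).

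Whether the genes that moved with siAHR-2 also differed by MYC was examined in the set of 6 libraries, which share no library with the knockdown. There, 3 untransfected myc-/- + MYC libraries were set against 3 myc-/- siCtrl libraries, so that MYC and transfection cannot be told apart. Of all genes, 3537 (26.8%) passed both cutoffs, 1653 higher (12.5%) and 1884 lower (14.3%) with MYC. Of the 41 genes that fell with siAHR-2, 8 were higher (19.5%) and 11 lower (26.8%) with MYC. Of the 21 that rose, 11 were higher (52.4%) and 4 lower (19%) with MYC. Ahr itself was higher with MYC by 0.52 (adjusted p = 8.33e-07 by limma), which is short of the fold cutoff. Among its targets, Aldh3a1 was higher with MYC by 2.18, Nqo1 by 1.29 and Ahrr by 0.65, whereas Cyp1b1 was lower by 0.84 and Ugt1a6 lower by 3.24, each past both cutoffs. The AHR targets that fell with siAHR-2 thus stood on both sides of the MYC comparison. The nucleolar factors had a median of 0.395 with MYC and the cytosolic ribosomal proteins one of 0.852, and 79 of 79 of the latter were higher at an FDR of 5%. Of all genes, 76.2% were called at that FDR there, 37.3% higher and 39% lower.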

How the data were processed

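Per the labels, poly-A RNA of 18 libraries was sequenced, 3 in each of 6 groups. The authors aligned reads to rn6 with HISAT2 2.1.0, removed genes with few reads and normalized with DESeq2, as their methods state; the read counter, the annotation and any use of strand are not given in the sources used here. The authors deposited values on a log2 scale for 13188 genes, labelled as log CPM, but totals taken off the log are far too large for CPM. The transformation is therefore unknown, no reads could be recovered, and sequencing depth, with the precision that follows from it, is unknown. Whether it shrinks fold changes of low genes was not tested.

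Groups, replicate numbers and columns were matched by the labels, and 0 value columns had no sample. Tests used limma 3.58.1 in R 4.3.3 (lmFit, then eBayes allowing the variance to follow the mean level), applied to the table without rescaling, with only the compared groups in a fit and Benjamini-Hochberg adjustment over all 13188 genes. "Past both cutoffs" means a change of at least 1.5-fold and an adjusted p of at most 0.01, and an FDR of 5% means an adjusted p under 0.05. SE is that of the moderated fit. The fits were tested on simulated data. Plots come from Python 3.11.15 and matplotlib 3.10.9.

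The members and the 36 gene lists were chosen with earlier results of these data known. Named genes were Ahr, all measured partners and targets of AHR, the 12 largest rises and 15 largest falls past both cutoffs without overlap between groups, up to 4 members of each other list with the smallest p at an FDR of 5% (with none, the one with the smallest p), Lef1, Lrp6, Max, and the 3 largest direct differences each way; placeholder symbols were not named, and some genes that the rule names are not reported here. Symbols of lists and promoters were matched to RefSeq on GRCr8, with 12169 of 13188 genes matched; of 997 list entries 900 matched by symbol, 30 by synonym, and 67 are not analysed here. The xenobiotic response core and the E-box, spelled out in the report, were searched on both strands in windows of 250 bases before to 50 after the start. Alternatives were 12 libraries in one fit, no trend, quantile normalization, median centring, a mean value of at least 5, a pseudocount of 1, an adjusted p of 0.05 with the fold cutoff, a block for the replicate number, and removal of single libraries. The sequences of the siRNAs were not used here.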

Additional observations from a re-analysis of the deposited data

Results flagged for a closer look

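The effects of the 2 siRNAs against AHR differed in the direct limma comparison of siAHR-2 with siAHR-5, past both cutoffs, for 23 of the 162 genes named by the rule and reported here, given as siAHR-2 minus siAHR-5 on the log2 scale. Of all genes, 2.18% passed. The count cannot be set against that share, because the siAHR-2 libraries that picked many of the 162 genes also enter this comparison. Rad23b, Fech, Habp4, Ptprv, Cdh3 and Gja1 were named for the size of this very difference. The other 17 were named for the size or p-value of their change with siAHR-2. The passing of all 23 is therefore a description and not a result. Lower with siAHR-2 were Ptprv (-1.38), Cdh3 (-1.32), Gja1 (-1.27), Oasl (-1.18), Aff4 (-1.11) and Loxl2 (-1.05). Smaller differences in the same direction were those of Atcay (-0.97), Cxcl10 (-0.82), Chac1 (-0.80), Ccdc51 (-0.78), Uvrag (-0.77) and Cxcl1 (-0.76). Polr3g (-0.72), Insig1 (-0.70), Map1b (-0.66), Sparc (-0.65) and Csf1 (-0.63) were lower too. Pcolce (-0.71) and Serpinh1 (-0.59), which were singled out after their values were seen and are not counted in the 23, also passed. Higher with siAHR-2 were Rad23b (1.75), Fech (1.27), Habp4 (1.24), Txnrd1 (0.86), Got1 (0.84) and Shmt2 (0.69). The adjusted p-values by limma ran from 2.37e-05 for Rad23b to 0.000731 for Cxcl1, and the siAHR-2 and siAHR-5 libraries did not overlap for the 23. The cause of these differences was not tested. Among the genes with siAHR-2 and siAHR-5 means on opposite sides of the siCtrl mean were Cxcl1, with 11.23 and 12 around 11.68, Csf1, with 13.93 and 14.56 around 14.13, Sparc, with 15.43 and 16.08 around 15.66, and Shmt2, with 14.97 and 14.28 around 14.52.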

How the results depend on the processing

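All 62 genes past both cutoffs kept their direction under each alternative. Their number was 62 with 12 libraries in one fit, a mean of at least 5, a pseudocount of 1 or an adjusted p of 0.05, 61 without the trend, 56 under quantile normalization (49 shared) and 68 under median centring (56 shared), and between 52 and 64 without 1 library (49 to 57 shared). At an FDR of 5% the number was between 2572 and 3460 without 1 library, 3182 with 12 libraries and 5038 under median centring. Ahr ranged from -1.31 to -1.25 without 1 library. The direct comparison gave 258 to 280 genes and the MYC comparison 3518 to 3567 without 1 library. For the 166 named genes, settings other than leaving out a library kept the call in 1083 values, lost it in 62 and gained it in 13, and none changed direction after being called. Leaving out a library kept the call in 929 values, lost it in 64 and gained it in 3. Counts of lists in the direct comparison under these settings were added after seeing the data.

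Deviations of same-numbered libraries correlated at 0.0579, 0.00119 and -0.029, inside the range for different numbers (-0.0638 to 0.0656). What the numbers stand for was not stated, so whether they mark a batch or a culture cannot be told. With the replicate number as a block, 0 genes passed both cutoffs by limma (smallest adjusted p 0.0126, 5030 genes at an unadjusted p under 0.05, 2852 at an FDR of 5%), and Ahr kept -1.29 with an adjusted p of 0.0126; 2 of the 6 libraries correlated best with their own number. No depth is known, so none could be set as a limit. Differences of genes with low values rest on an unknown transformation.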
